A study of Mus musculus with 12 samples.

Results

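The genes described are the subunits of mitochondrial oxidative phosphorylation in mouse gastric organoids with and without Wnt inhibition. They were taken by name. A gene row was a member if its symbol began with Nduf, Uqcr, Cox4 to Cox8, Atp5, mt-Nd, mt-Co, mt-Atp or mt-Cyt, or was Sdha, Sdhb, Sdhc or Sdhd. Symbols containing -ps were left out, and a member needed 10 or more counts summed over the 12 libraries. The rule gave 104 members of 55421 gene rows, 91 encoded in the nucleus and 13 in mitochondrial DNA (mtDNA), from 111 rows that matched by name. Cox6a2 lay just inside the minimum with 14 counts and Ndufa11b just outside it with 4. The name rule also takes in 8 assembly factors of complex I (Ndufaf), which help to build the complex and are not part of it. It takes in 3 rows that GENCODE M21 annotates as processed pseudogenes, Ndufb4c, Ndufs6b and Cox6c2, which are counted with the accessory subunits of complex I (the first pair) and with complex IV. The row Ndufb1-ps, with 7783 counts, was left out by its symbol.

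The libraries came from WT organoids grown from primary gastric glands, in 4 groups of 3 libraries each: Wnt-inhibited corpus, vehicle corpus, Wnt-inhibited antrum and vehicle antrum. The same line numbers, 8025, 8026 and 8028, occur in every group, and values below are given in that order. On day 4 after a passage, the inhibited organoids were given XAV939, a tankyrase inhibitor that stabilizes the beta-catenin destruction complex, at a labelled 1 mM. Exogenous Wnt and R-spondin were withdrawn from them and Noggin, a BMP antagonist, was added at 100 ng/mL, while vehicle organoids received DMSO in their usual medium. RNA was taken 24 h later and selected for polyA. The growth medium held 50% L-WRN conditioned medium, a source of Wnt, R-spondin and Noggin, and serum at 10% for antrum and 20% for corpus. Effects of XAV939 and of the altered medium cannot be told apart here, and the same holds for region and serum. Each line is labelled as independent, and nothing says whether a number shared by antrum and corpus marks the same mouse.

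Oxidative phosphorylation runs on 5 complexes of the inner mitochondrial membrane. Complexes I and II pass electrons to ubiquinone, complex III passes them on to cytochrome c, and complex IV hands them to oxygen, while the ATP synthase, called complex V, uses the resulting proton gradient. Most subunits are nuclear genes, and complex II is wholly nuclear. A small set is transcribed from mtDNA as long precursor RNAs that are cut into single messages. In the stomach the acid-secreting parietal cell is the type best known for dense mitochondria.

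Library totals ran between 18858022 and 31656696 counts, and 3 counts, the limit that a count of 0 allows, correspond to 0.0889 to 0.177 CPM, the counts per 1e6 library counts. The limit covers counting error only. The summed level of the Wnt target and stem cell markers Lgr5, Axin2, Tnfrsf19 and Sp5 was 8.48 to 26.9 CPM in inhibited corpus libraries against 150 to 176 CPM in vehicle ones. In antrum it was 20.3 to 22.7 CPM after inhibition against 174 to 191 CPM with vehicle. The surface pit cell list (5 of 5 genes detected) summed to 1980 to 3760 CPM in inhibited against 225 to 364 CPM in vehicle corpus libraries, and to 3470 to 4690 CPM in inhibited against 260 to 320 CPM in vehicle antral ones. The 7 parietal markers summed to 83.3 to 103 CPM in inhibited against 238 to 398 CPM in vehicle corpus, and to 88.9 to 95.2 CPM in inhibited against 162 to 226 CPM in vehicle antrum. Most of that sum was Kcnq1 and Cblif, of which Cblif is made by chief cells in mice, while the defining proton pump genes were at or near 0, with 276 counts of Atp4a and 1 count of Atp4b over all libraries. The 4 chief cell markers in the table summed to 22.4 to 27.5 CPM in inhibited against 82.5 to 199 CPM in vehicle corpus, and to 19.5 to 38.4 CPM in inhibited against 69.4 to 103 CPM in vehicle antrum. The fall lay mainly in Pgc and Cym. Bhlha15 averaged 10.95 CPM in inhibited against 10.57 CPM in vehicle corpus, and 9.63 against 12.06 CPM in antrum. Pga5, near 0, was higher after inhibition, at 0.165 against 0.0629 CPM in corpus and 0.283 against 0.0833 CPM in antrum. In bulk RNA, fewer cells of a type and less RNA per cell cannot be told apart, and the part of these shifts in the results below was not tested. Counts on rRNA-like genes took 17.2% and 6.87% of the antral vehicle libraries of lines 8025 and 8028, against 0.839% to 3.46% elsewhere. On the second principal component, which held 18.6% of the variance, the corpus libraries of line 8028 stood at 1.77 (vehicle) and -25.3 (inhibited), while the other 4 corpus libraries stood at 28.2 to 40.9, so results are also given without them.

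Levels are set side by side as mean CPM per kilobase of exon over all libraries. The nuclear subunits of complexes II to V had median levels of 65.2 (complex II), 96.1 (III), 88.5 (IV) and 70.1 (V). Complex I had medians of 43.9 for its 7 core and 40.3 for its 31 accessory rows, Ndufb4c and Ndufs6b among them. The assembly factors were lowest, with a median of 5.92 and a range of 3.83 to 13.68. Atp5b, the catalytic beta subunit of the ATP synthase, was the highest nuclear member at 359.2, followed by Cox8a at 331.5 and the ATP synthase alpha subunit Atp5a1 at 314.5. The 13 mtDNA genes had a median of 571 and were led by mt-Co1, the catalytic core of complex IV, at 5088. Adding the near-identical nuclear copies described further on raised the mtDNA median to 784.8. mt-Co1 was then at 5709, followed by mt-Co2 at 4425, which had 272.9 on its own row.

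**Figure D1:**
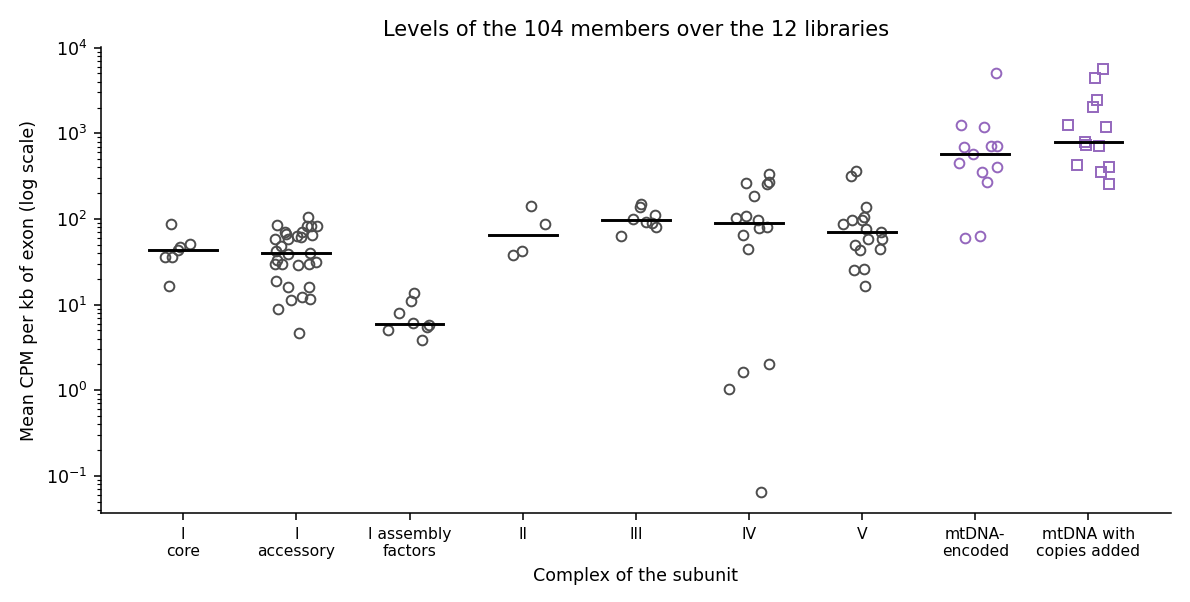
Mean level of each of the 104 members over the 12 libraries, in CPM per kilobase of exon on a log scale, grouped by complex, with a bar at each median. Assembly factors sit between 3.83 and 13.68, most subunits lie above them, and the mtDNA genes reach 5088 for mt-Co1; 4 points in complex IV lie at 2.04 or below (Cox6b2, Cox6c2, Cox7a1 and Cox6a2).

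Of the low points in complex IV, Cox6c2 is annotated as a processed pseudogene and the other 3 are tissue-restricted isoforms. Cox6b2, the testis form, was at 2.04 CPM per kilobase against 253.5 for the general form Cox6b1. The muscle and heart forms Cox7a1 and Cox6a2 were at 1.03 and 0.0646, against 107.8 for Cox7a2 and 273.8 for Cox6a1. Cox8b, another muscle form, had 3 counts in all, the lung and hypoxia form Cox4i2 had 1, and Cox8c and Cox7b2 had 0. Ndufa4l2, the hypoxia-induced relative of Ndufa4, had 3 counts. Markers of striated muscle and brown fat (Ucp1, Ckm and Myh7) summed to at most 1.03 CPM in any library. The organoids thus held the general forms Cox4i1, Cox6a1, Cox6b1, Cox7a2, Cox7b and Cox8a, at 79.02 to 331.5 CPM per kilobase.

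Wnt inhibition was followed by small differences in these genes. A gene passed the test at a Benjamini-Hochberg adjusted p below 0.05 over 16152 genes in edgeR's quasi-likelihood fit, the source of every adjusted p below. Of the 90 tested nuclear members, 8 were higher and 2 lower in inhibited corpus organoids, and 0 of the 13 mtDNA members passed, against 30.9% of all genes tested (15.5% higher and 15.4% lower). In antral organoids 19 nuclear and 4 mtDNA members rose and 0 fell, against 29.7% of all genes (16.3% higher and 13.4% lower). The members called thus made up 9.71% of the 103 tested in corpus and 22.3% in antrum. Among genes averaging 20 CPM or more, the shares were 8.79% of 91 members against 37.4% of all such genes in corpus, and 25.3% against 36.7% in antrum. Called higher were 8 of these members and 1880 of 7886 such genes in corpus, and 23 and 1991 in antrum. Called lower were 0 members and 1070 genes in corpus, and 0 and 904 in antrum. For the 0 mtDNA calls in corpus, 2 genes had an unadjusted p under 0.05, DESeq2 called 2 and limma-voom 0.

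The differences were within narrow bounds for most nuclear members. The 95% interval of the fold change lay within 1.5-fold for 92 of the 103 tested members in corpus and for 92 in antrum, against 44.5% and 43.8% of all genes. Among genes averaging 20 CPM or more it did so for 96.7% and 94.5% of members, against 69.3% and 68.4% of all such genes. By origin it did so for 91.1% and 92.2% of nuclear members in corpus and antrum, and for 76.9% and 69.2% of mtDNA members. Among the assembly factors the shares were 50% and 62.5%. A call with a fold above 1.5 was made for 0 members in corpus and 1 in antrum, mt-Co2, against 15.9% and 15.2% of all genes. In corpus 23 members had all 3 inhibited libraries above all 3 vehicle libraries and 8 had all below, against 19.7% and 21.1% of all genes. In antrum 36 members lay wholly above and 2 wholly below, against 24.1% and 24.6% of all genes. Among genes averaging 20 CPM or more, 23 of 91 members and 2230 of 7886 genes lay wholly above in corpus. Wholly below there were 5 members and 1389 genes. In antrum 35 of those members and 2763 of those genes lay wholly above, and 0 and 1744 wholly below.

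The median log2 difference of the nuclear members was 0.07 in corpus and 0.10 in antrum, against -0.04 for all genes in each region. That of the mtDNA members was 0.04 in corpus and 0.23 in antrum. Among genes averaging 20 CPM or more, the median of all genes was 0.03 in corpus and 0.04 in antrum, against 0.07 and 0.14 for members. By complex, the antral medians ran from 0.08 for complex I core subunits to 0.20 for complex II, and the corpus medians from 0.01 for complex I core subunits to 0.12 for complex IV. The assembly factors alone had medians below 0, at -0.20 in corpus and -0.09 in antrum. With library totals used unscaled, the corpus medians turned to -0.08 for nuclear and -0.12 for mtDNA members, as set out below.

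**Figure D2:**
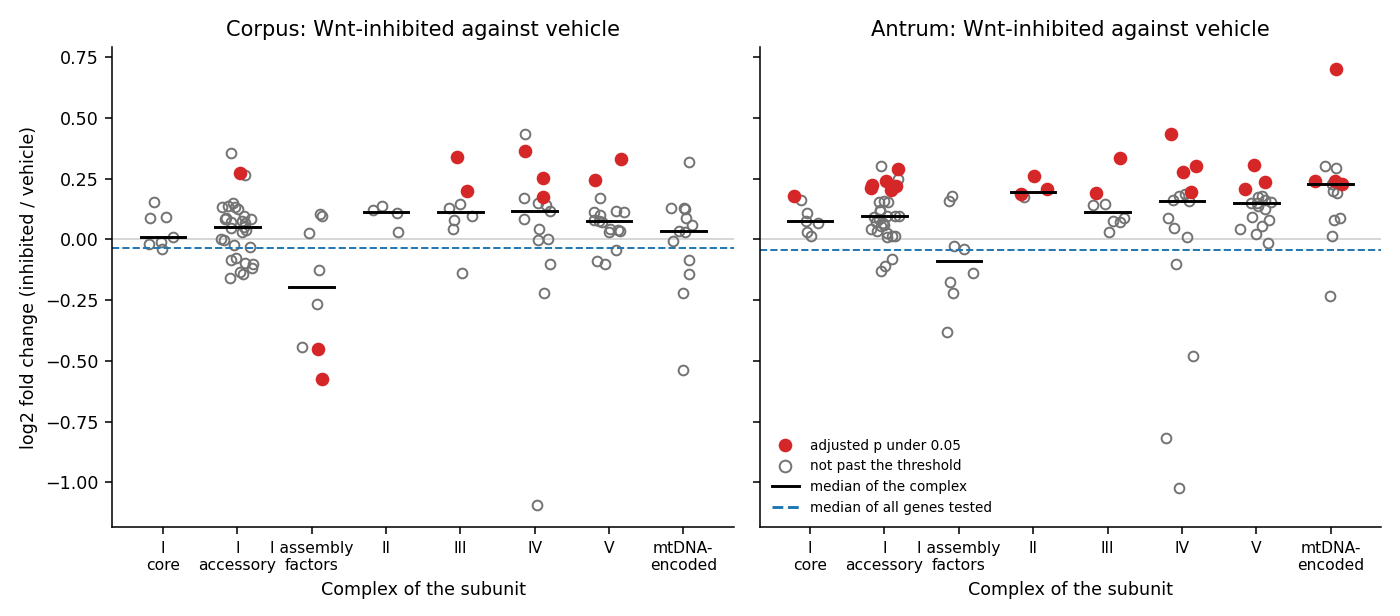
log2 fold change of each tested member after Wnt inhibition relative to vehicle, by complex, in corpus (left) and antrum (right), each from 3 lines against 3; filled points passed the test, bars are medians of the complex and the dashed line is the median of all genes. Corpus has 8 members called higher and 2 lower (Ndufaf5 and Ndufaf6), and antrum has 23 called higher, with mt-Co2 topmost at 0.70; with unscaled totals most corpus points lie below 0.

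The counts depend on single libraries and on the line. With the line as a block, since each line was treated both ways, the corpus calls were 12 higher and 5 lower, and the antral calls 35 higher and 2 lower, when 43.5% and 40.8% of all genes were called in corpus and antrum. Those calls included all 10 corpus and all 23 antral members named by the unblocked fit. Leaving out inhibited corpus line 8028 gave 18 nuclear calls in corpus in place of 10, and leaving out vehicle corpus line 8025 gave 6, when 41.7% and 25.2% of all genes were called. In antrum the 19 nuclear calls became 7 without inhibited line 8026, 8 without inhibited line 8028 and 8 without vehicle line 8025, and the 4 mtDNA calls became 1 without inhibited line 8025 or without vehicle line 8026. In these 5 fits 20.9% to 23.6% of all genes were called, so the share over all genes moved as well. Without the rRNA-rich vehicle libraries of lines 8025 and 8028 the antral calls were 8 nuclear and 1 mtDNA, all higher, against 16.1% of all genes. That fit leaves 1 antral vehicle library, which is assumed to vary like the other groups.

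In complex I, which oxidizes NADH, 1 of 31 accessory subunits rose in corpus, and 6 rose in antrum. Ndufa3, a small subunit of the membrane arm, was the member called in both regions. It had 49.1, 48.3 and 44.1 CPM in inhibited corpus lines, against 36.8, 40.7 and 39.6 CPM in vehicle ones. In antrum it had 45.5, 49.1 and 45.2 CPM after inhibition, against 37.5, 38.8 and 42.0 CPM with vehicle. All inhibited libraries were above all vehicle libraries of their region, with log2 fold changes of 0.27 (SE 0.0709, adjusted p = 0.0125) and 0.24 (SE 0.0712, adjusted p = 0.0256). The antral call was lost without inhibited line 8025 or 8026 or vehicle line 8025 or 8026 (adjusted p = 0.0512 to 0.0972).

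Ndufa1, an X-linked accessory subunit needed for assembly of the membrane arm, had 39.0, 39.4 and 39.4 CPM in inhibited antral lines, against 28.6, 31.5 and 36.2 CPM in vehicle ones. The inhibited antral lines were nearly level with each other and above the spread of the vehicle lines, and the log2 fold change was 0.29 (SE 0.0823, adjusted p = 0.0213). Its corpus values overlapped, with 36.3, 34.8 and 33.5 CPM after inhibition against 32.5, 34.5 and 31.5 CPM with vehicle. The antral call was lost on leaving out any of 5 of the 6 antral libraries, the exception being vehicle line 8028 (adjusted p = 0.0529 to 0.0619). The other accessory subunits that rose in antrum were Ndufa9, at the joint of the 2 arms (0.22), Ndufs4, best known as the gene deleted in a mouse model of Leigh syndrome (0.20), Ndufb9 (0.22) and Ndufs5 (0.21), all log2 fold changes with adjusted p of 0.0174 to 0.0486. Each was lost under upper quartile scaling (0.0573 to 0.136) and on leaving out single antral libraries: 2 for Ndufb9 (inhibited lines 8026 and 8028), 4 for Ndufa9 (these and vehicle lines 8025 and 8028), 5 for Ndufs4 (all but vehicle line 8028) and 5 for Ndufs5 (all but inhibited line 8025), with adjusted p of 0.0510 to 0.145. Ndufs5 was also not called by limma-voom (0.0533). Ndufs1, the largest core subunit, had 130, 124 and 138 CPM in inhibited corpus against 129, 128 and 140.1 CPM in vehicle corpus, and 132, 146 and 143 CPM in inhibited against 123, 134 and 133 CPM in vehicle antrum. Its groups overlapped in both regions.

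Of the 8 complex I assembly factors, 2 fell in corpus and 0 passed in antrum, where 2 had an unadjusted p under 0.05 and DESeq2 and limma-voom called 0. Ndufaf6, which acts early in assembly, had 4.24, 5.09 and 5.83 CPM in inhibited corpus lines, against 7.46, 8.16 and 6.95 CPM in vehicle ones. The groups did not overlap, and the log2 fold change was -0.57 (SE 0.161, adjusted p = 0.0187). Its antral values were 4.57, 6.23 and 5.47 CPM after inhibition against 6.13, 7.87 and 7.09 CPM with vehicle, lower in each line but overlapping across lines (adjusted p = 0.0989, and 0.0479 with the line as a block). The corpus call was lost without line 8025 or 8026 of either group (adjusted p = 0.0532 to 0.0832).

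Ndufaf5, an enzyme that modifies the core subunit Ndufs7 during assembly, had 6.59, 6.42 and 10.2 CPM in inhibited corpus lines, against 10.3, 10.3 and 11.2 CPM in vehicle ones. Lines 8025 and 8026 accounted for the difference, since line 8028 was only just below the vehicle range, and the log2 fold change was -0.45 (SE 0.158, adjusted p = 0.0489). The call was lost on leaving out any corpus library other than inhibited line 8028 (adjusted p = 0.0958 to 0.184). The same division of lines was seen in Ndufaf2, a late-acting factor, with 7.37, 6.89 and 11.96 CPM in inhibited corpus against 12.3, 11.3 and 12.1 CPM in vehicle corpus. Ndufaf4, which acts with Ndufaf3, had 12.5, 17.0 and 29.6 CPM in inhibited against 23.3, 20.7 and 27.2 CPM in vehicle corpus. Neither passed with all lines, although a block on the line gave Ndufaf2 an adjusted p of 0.0233 (-0.48), and both were called lower once the 2 corpus libraries of line 8028 were left out.

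Complex II, succinate dehydrogenase, also works in the tricarboxylic acid cycle and holds 4 subunits. In antrum 3 of the 4 rose, and in corpus 0 passed, where 1 had an unadjusted p under 0.05, DESeq2 called 1 (Sdhd) and limma-voom 0. Sdhb, the iron-sulfur subunit, had 94.4, 96.6 and 92.7 CPM in inhibited antral lines, against 73.8, 78.8 and 84.0 CPM in vehicle ones. Its inhibited antral libraries lay above every vehicle library, at a log2 fold change of 0.26 (SE 0.0654, adjusted p = 0.0110). In corpus it had 84.1, 85.6 and 95.3 CPM after inhibition against 78.9, 82.0 and 83.3 CPM with vehicle, also without overlap but at a log2 fold change of 0.12 (adjusted p = 0.194).

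The membrane anchors Sdhc and Sdhd rose in antrum by 0.21 and 0.19 on the log2 scale (adjusted p = 0.0414 and 0.0386). Each call was lost on leaving out any of 5 of the 6 antral libraries (adjusted p = 0.0646 to 0.117). Sdha, the flavoprotein that oxidizes succinate, had 363, 406 and 412 CPM in inhibited antrum against 335, 357 and 354 CPM in vehicle antrum, without overlap (log2 0.18, adjusted p = 0.0872, and 0.0278 with the line as a block). In corpus it had 341, 351 and 394 CPM after inhibition against 338, 361 and 364 CPM with vehicle, which overlapped. Counted as a share of all nuclear members' counts, complex II took 6.84% ± 0.119 in inhibited antrum and 6.56% ± 0.0791 in vehicle antrum (SD, n = 3 each), without overlap. In corpus the shares were 6.73% ± 0.175 and 6.70% ± 0.0613, which overlapped.

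In complex III 2 of 8 nuclear subunits rose in each region, and Uqcrb was called in both. Uqcrb, which binds ubiquinone, had 82.0, 88.3 and 84.2 CPM in inhibited corpus lines, against 72.2, 78.5 and 71.1 CPM in vehicle ones. In antrum it had 85.4, 88.4 and 84.9 CPM after inhibition, against 66.1, 67.9 and 71.0 CPM with vehicle. The gap was wider in antrum, where the log2 fold change was 0.34 (SE 0.0579, adjusted p = 0.00120), than in corpus at 0.20 (SE 0.0576, adjusted p = 0.0221), but the difference between regions did not pass its own test. The corpus call was lost without inhibited line 8026 or vehicle line 8025 or 8028 (adjusted p = 0.0502 to 0.0603). Pseudogene rows of Uqcrb hold 12.9% of the counts of gene and copies together, and with them added the log2 fold changes were 0.23 in corpus and 0.31 in antrum, both still called.

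Uqcrq, a small subunit beside cytochrome b, had 179.6, 169 and 149.97 CPM in inhibited corpus lines, against 131, 135 and 129 CPM in vehicle ones. All inhibited corpus libraries were above the vehicle range, at a log2 fold change of 0.34 (SE 0.0732, adjusted p = 0.00475). In antrum the values overlapped, with 151, 158 and 159 CPM after inhibition against 135, 136 and 153 CPM with vehicle (0.14, adjusted p = 0.174). The other antral rise was the core protein Uqcrc2 (0.19, adjusted p = 0.0396), which was lost without inhibited line 8026 or 8028 or vehicle line 8025 or 8026 (0.0668 to 0.133) and under upper quartile scaling (0.116). Uqcrh, the hinge protein of cytochrome c1, had 141, 121 and 134 CPM in inhibited corpus against 142, 150.5 and 143 CPM in vehicle corpus, all below the vehicle range, but did not pass (-0.14, adjusted p = 0.242).

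In complex IV, cytochrome c oxidase, Cox5a, Cox6a1 and Cox6b1 rose in both regions, and Cox5b rose in antrum. Cox5a is a subunit on the matrix side of the enzyme, and the gene lies at chr9:57521274-57532426 (GRCm38, plus strand). The 150 bases before its RefSeq start, at chr9:57521082-57521231 on the plus strand, are shown with the match to the Sp1 motif in capitals, because Cox5a had the lowest adjusted p of the nuclear members in both regions:
Cox5a: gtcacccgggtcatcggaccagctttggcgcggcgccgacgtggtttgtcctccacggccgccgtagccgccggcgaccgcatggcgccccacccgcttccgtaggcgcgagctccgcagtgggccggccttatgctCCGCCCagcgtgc
Cox5a had 143, 146 and 158 CPM in inhibited corpus lines, against 115, 115 and 118 CPM in vehicle ones. The antral lines had 161, 173 and 152 CPM after inhibition, against 121, 120.1 and 119 CPM with vehicle. Every inhibited library exceeded every vehicle library of either region, and the vehicle libraries differed little from each other. The log2 fold changes were 0.36 (SE 0.0584, adjusted p = 0.000778) in corpus and 0.43 (SE 0.0585, adjusted p = 0.000238) in antrum. The call was made under 21 of 21 settings in antrum and 20 of 21 in corpus, where it was lost with unscaled totals (log2 0.21, adjusted p = 0.0982).

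Cox6a1, the general form of a subunit at the dimer contact, lies at chr5:115345642-115348981 (GRCm38, minus strand). The 127 bases upstream that overlap no annotated exon, at chr5:115348982-115349108 on the minus strand, are shown because Cox6a1 was the member called in both regions whose promoter holds a match to the NRF1 motif. Capitals mark that match and both Sp1 matches:
Cox6a1: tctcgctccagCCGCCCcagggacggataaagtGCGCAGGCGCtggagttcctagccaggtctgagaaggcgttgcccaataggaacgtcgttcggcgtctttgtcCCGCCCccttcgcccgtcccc
Cox6a1 had 215, 210.2 and 201 CPM in inhibited corpus lines, against 177, 181 and 166 CPM in vehicle ones. In antrum it had 205, 216 and 216 CPM after inhibition, against 166, 172 and 179.7 CPM with vehicle. The groups did not overlap in either region, with log2 fold changes of 0.25 (SE 0.0557, adjusted p = 0.00499) and 0.30 (SE 0.0557, adjusted p = 0.00189).

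Cox6b1, the intermembrane-space subunit that also bridges the dimer, had 199.9, 186 and 186 CPM in inhibited corpus lines, against 163, 175 and 169 CPM in vehicle ones. For antrum the values were 196, 199 and 193 CPM after inhibition, against 160.0, 163 and 163 CPM with vehicle. Both sets were without overlap, and the antral gap (log2 0.28, SE 0.0507, adjusted p = 0.00179) was wider than the corpus gap (0.17, SE 0.0506, adjusted p = 0.0232). The corpus call was lost without line 8025 of either group (adjusted p = 0.0709 and 0.0556). Cox5b, a zinc-binding matrix subunit, rose in antrum by 0.19 on the log2 scale (adjusted p = 0.0329) and differed by 0.17 in corpus (adjusted p = 0.0569, and 0.0242 with the line as a block). Its antral call was lost without inhibited line 8026 or 8028 or vehicle line 8025 (0.0756 to 0.113) and under upper quartile scaling (0.0806).

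Cox4i1, the largest nuclear-encoded subunit, had 449.9, 413 and 432 CPM in inhibited corpus against 383, 397 and 390.0 CPM in vehicle corpus. In antrum it had 417, 466 and 417 CPM after inhibition against 347, 396 and 399.8 CPM with vehicle. Neither pair of groups overlapped, but the test was not passed (log2 0.15 and 0.19, adjusted p = 0.134 and 0.0670), and the antral value passed with the line as a block (0.0341). Cox7a2, Cox7a2l, Cox7b and Cox8a had log2 differences of 0.08, -0.10, 0.04 and 0.12 in corpus and 0.16, 0.01, 0.18 and 0.16 in antrum, and none of them passed; Cox7b and Cox8a passed in antrum with the block (adjusted p = 0.0472 and 0.0371). Ndufa4, long counted to complex I and now to complex IV, had 104, 114 and 144 CPM in inhibited corpus against 130.1, 148 and 144 CPM in vehicle corpus, low in lines 8025 and 8026 and level in line 8028 (log2 -0.22, adjusted p = 0.127, and 0.0231 with the block).

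Cox6b2, at low level, had 2.72, 1.67 and 0.451 CPM in inhibited corpus against 4.47, 4.53 and 1.26 CPM in vehicle corpus. Antral organoids had 1.65, 1.27 and 1.41 CPM after inhibition against 2.42, 2.07 and 3.17 CPM with vehicle. It was lower after inhibition within each line of both regions, although lines differed by more than the treatment in corpus (log2 -1.10, adjusted p = 0.155, and 0.00243 with the block). The antral difference of -0.82 had an adjusted p of 0.297, and 0.0157 with the block.

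In the ATP synthase 2 of 17 subunits rose in corpus and 3 in antrum. The 3 genes Atp5g1, Atp5g2 and Atp5g3 encode the same mature c subunit of the membrane ring, with different import sequences, and differed in how they moved. Atp5g1 had 136, 128 and 138 CPM in inhibited corpus lines, against 101, 106 and 112 CPM in vehicle ones. In antrum it had 142, 150.5 and 139 CPM after inhibition, against 109.5, 120.2 and 119 CPM with vehicle. The groups lay apart in both regions, with log2 fold changes of 0.33 (SE 0.0612, adjusted p = 0.00181) and 0.30 (SE 0.0612, adjusted p = 0.00306). Atp5g2 (-0.09 and -0.02) and Atp5g3 (0.07 and 0.14) did not pass in corpus or antrum. Their levels were 25.5 CPM per kilobase for Atp5g1, 97.1 for Atp5g2 and 136.7 for Atp5g3, so the gene that rose was the lowest of the set.

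Atp5d, the delta subunit of the central stalk, had 217, 218 and 215 CPM in inhibited corpus lines, against 188, 179 and 182 CPM in vehicle ones. In antral lines the values were 221, 229 and 213 CPM after inhibition, against 187, 180.3 and 195 CPM with vehicle. All inhibited libraries exceeded all vehicle libraries, with log2 fold changes of 0.24 (SE 0.0509, adjusted p = 0.00381) in corpus and 0.24 (SE 0.0510, adjusted p = 0.00472) in antrum. Atp5f1, the b subunit of the peripheral stalk, was the other antral rise (0.21, adjusted p = 0.0465), and its groups overlapped. The call was lost on leaving out any antral library but vehicle line 8028 (0.0515 to 0.130) and under upper quartile scaling (0.108). The epsilon subunit Atp5e (0.08 and 0.15) and the membrane subunit Atp5k (0.12 and 0.16) did not pass in corpus or antrum. Atp5c1, the gamma subunit, had 176, 175 and 189 CPM in inhibited corpus against 188, 198 and 193 CPM in vehicle corpus (-0.10, adjusted p = 0.221).

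The regions shared 7 called members: Ndufa3, Uqcrb, Cox5a, Cox6a1, Cox6b1, Atp5d and Atp5g1, all higher after inhibition. They make up 70% of the corpus calls and 30.4% of the antral calls, and 23.3% of all genes were called in both regions. In corpus alone, Uqcrq, Ndufaf5 and Ndufaf6 were called.

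**Figure D3:**
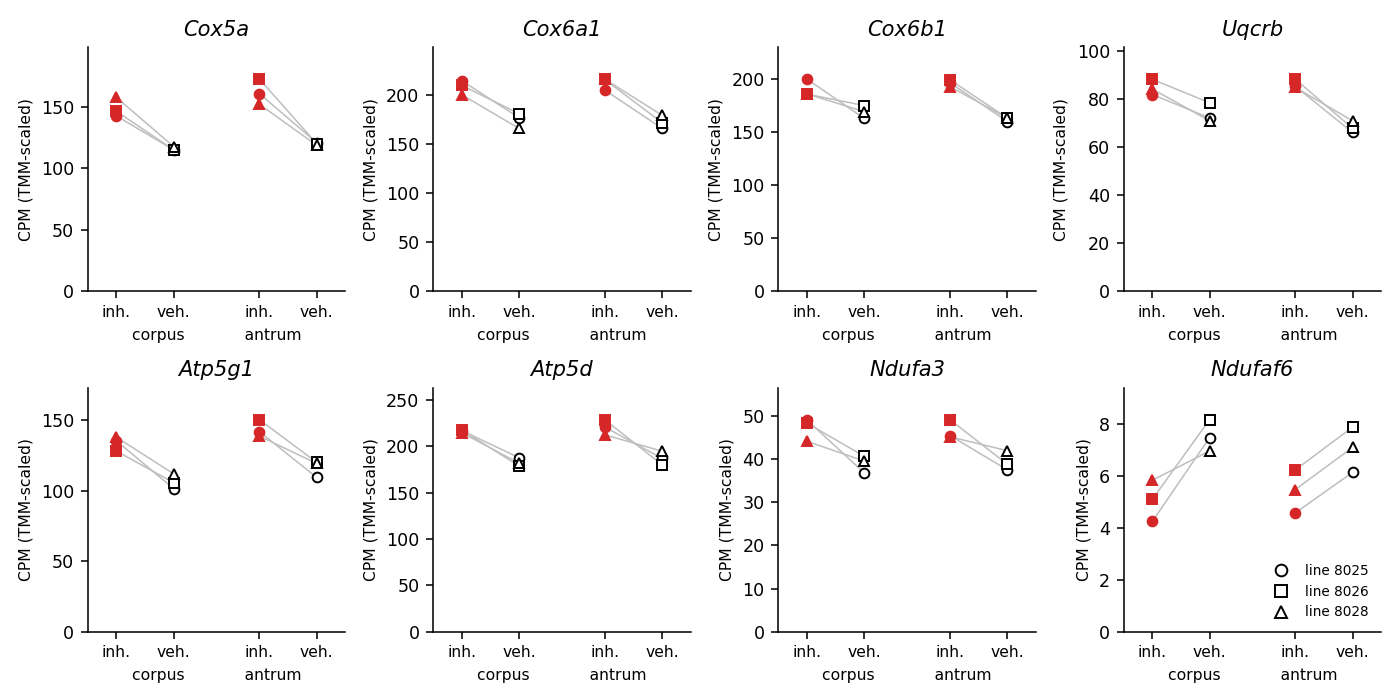
CPM (TMM-scaled) of the 7 members called in both regions and of Ndufaf6 in each library, with inhibited (filled) left of vehicle (open) and grey lines joining the libraries of one organoid line. In the first 7 panels all 3 inhibited libraries lie above all 3 vehicle libraries of the region, and in the Ndufaf6 panel each line is lower after inhibition; all axes start at 0.

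The upstream sequences of the members were searched for motifs of factors known to act on respiratory genes. RefSeq promoter windows of 300 bases (250 before to 50 after the start) were matched for 73 of the 104 members, all nuclear, among 27025 genes. A gene was counted if any of its windows held the motif. The NRF1 motif, written as GCGCA, any base and GCGC and read on both strands like the others, was in 26% of the matched members and in 5.19% of all genes with a window. The YY1 motif AAGATGGCG was in 11% against 1.64%, the GABP motif CCGGAAGT in 6.85% against 4.31%, the ERR motif TNAAGGTCA in 4.11% against 1.43% and the Sp1 motif GGGCGG in 45.2% against 38.2%. Of the 7 members called in both regions 6 were matched, and 1 of them, Cox6a1, held the NRF1 motif, while 3 (Ndufa3, Cox5a and Cox6a1) held the Sp1 motif and 0 held the others. A match is a string of letters in this window and was not tested as a site.

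The 13 mtDNA genes encode 7 subunits of complex I, cytochrome b of complex III, 3 subunits of complex IV and 2 of the ATP synthase. On their own rows they took 1.20% to 1.68% of all counts in a library, and 1.795% to 2.353% with nuclear copies added. Of the counts on their own rows, mt-Co1 held 57.1% ± 6.09 in inhibited and 56.9% ± 3.32 in vehicle corpus libraries. In antral libraries it held 49.6% ± 1.87 after inhibition and 49.8% ± 2.59 with vehicle (SD, n = 3 each). The library share of the mtDNA genes' own rows was 1.49% ± 0.0876 in inhibited and 1.57% ± 0.125 in vehicle corpus. In antrum it was 1.47% ± 0.0770 after inhibition and 1.34% ± 0.123 with vehicle. The nuclear members took 1.11% ± 0.0557 in inhibited and 1.17% ± 0.0312 in vehicle corpus, and 1.16% ± 0.0465 in inhibited and 1.11% ± 0.155 in vehicle antrum. Libraries of the 2 treatments overlapped in each of these shares.

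In antrum mt-Co2, mt-Nd4, mt-Nd5 and mt-Nd6 rose. mt-Co2, the subunit that takes electrons from cytochrome c, had 242, 258 and 223 CPM in inhibited antral lines, against 152, 129 and 164 CPM in vehicle ones. The groups lay far apart, at a log2 fold change of 0.70 (SE 0.128, adjusted p = 0.00178). In corpus the values overlapped, with 179, 196 and 220.3 CPM after inhibition against 183, 162 and 132 CPM with vehicle (0.32, adjusted p = 0.0809). mt-Nd4 had 1161, 1027 and 1029.5 CPM in inhibited antrum against 936, 868 and 919.5 CPM in vehicle antrum, at a log2 fold change of 0.24 (adjusted p = 0.0268). mt-Nd5 and mt-Nd6 rose there by 0.23 and 0.24 on the log2 scale (adjusted p = 0.0420 and 0.0317). The calls of mt-Nd4, mt-Nd5 and mt-Nd6 were lost without inhibited line 8025 or vehicle line 8026 (adjusted p = 0.0657 to 0.122), and the calls of mt-Nd5 and mt-Nd6 also without inhibited line 8028 (0.128 and 0.107). mt-Nd5 was lost without vehicle line 8025 too (0.0657), and mt-Nd4 without vehicle line 8028 (0.0509).

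mt-Nd6 is transcribed from the strand opposite to the others, lies inside the path of the long precursor and overlaps the end of mt-Nd5. The labels do not state whether counting used strand, and reads of mt-Nd6 and of the antisense RNA cannot be told apart. mt-Atp8 and mt-Atp6 share 43 bases at chrM:7927-7969 (GRCm38), shown with the start codon of mt-Atp6 and the stop codon of mt-Atp8 in capitals because reads there belong to both genes:
mt-Atp8/mt-Atp6 overlap: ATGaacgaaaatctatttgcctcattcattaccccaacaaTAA
mt-Atp8 had log2 differences of 0.04 in corpus and 0.01 in antrum and mt-Atp6 had -0.14 and 0.19, and neither passed. mt-Cytb, at 1778, 1735 and 1691 CPM in inhibited antrum against 1428, 1418 and 1398 CPM in vehicle antrum, did not overlap and had an adjusted p of 0.0578 (log2 0.29), or 0.0284 with the line as a block. mt-Co1 had 8138, 6941 and 7710.1 CPM in inhibited against 6658, 5764 and 7431 CPM in vehicle antrum, and 9486, 9900.0 and 7234 CPM in inhibited against 9046, 8923 and 7096 CPM in vehicle corpus. It was higher after inhibition within each line, with overlap across lines (0.20 and 0.09, adjusted p = 0.311 and 0.679, and 0.0372 in antrum with the block).

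Some mtDNA genes had fewer counts on their own rows than were placed on the rows of near-identical copies. Stretches of mtDNA have been copied into nuclear chromosomes, and expected counts divide the reads that fit a gene and its copy between the rows. Copies were sought as pseudogene transcripts of at least 95% identity over at least 100 bases. For mt-Co2, 59950 counts were on its own row and 910629 on the copies Gm28661 and Gm13341, 93.8% of the sum. Gm28661 matches mt-Co2 in 681 of 681 aligned bases, whereas Gm13341 matches in 656 of 684 aligned columns, with 16 mismatches and 12 gaps. A window of 60 bases is shown at chrM:7457-7516 (plus strand), chr1:24615062-24615121 (minus) and chr2:22587471-22587530 (minus) of GRCm38, because it shows that no read inside it can tell mt-Co2 from Gm28661. Capitals mark the 6 positions where Gm13341 differs:
mt-Co2: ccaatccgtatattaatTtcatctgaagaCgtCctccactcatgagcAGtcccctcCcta
Gm28661: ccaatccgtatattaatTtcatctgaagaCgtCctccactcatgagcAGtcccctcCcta
Gm13341: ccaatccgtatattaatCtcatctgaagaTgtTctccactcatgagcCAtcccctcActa
Copies also held 86.0% of the summed counts of mt-Nd4l (Gm10222), 81.6% of mt-Co3 (Gm28437), 75.1% of mt-Nd3 (Gm28438) and 71.7% of mt-Atp6 (Gm10925). Gm28437, Gm10925 and Gm28661 lie in 1 run at chr1:24613189-24615565. For mt-Co1, mt-Nd4, mt-Nd2 and mt-Nd5 the share was 10.8% or less.

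Adding the copies changed the picture for these genes. Summed with its copies, mt-Co2 had 3447, 3333 and 3601 CPM in inhibited antrum against 2888, 2792 and 3112 CPM in vehicle antrum, still without overlap. Its log2 fold change was then 0.26 (95% interval 0.12 to 0.39, adjusted p = 0.00845) in place of 0.70, close to that of mt-Nd4, mt-Nd5 and mt-Nd6 with copies counted (0.25, 0.24 and 0.26). In that fit, which was added after the counts of the copies were seen, mt-Cytb also rose in antrum (0.31, adjusted p = 0.0390), for 5 mtDNA calls. mt-Nd4l alone had 10.5, 14.4 and 13.6 CPM in inhibited corpus against 20.4, 18.9 and 16.6 CPM in vehicle corpus, all lower (-0.54, adjusted p = 0.0618). With Gm10222 added, the corpus value turned to 120.0, 139.5 and 132.5 CPM after inhibition against 125, 117 and 110.2 CPM with vehicle (0.17, adjusted p = 0.0925). No mtDNA gene was called in corpus with copies added, as without them.

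**Figure D4:**
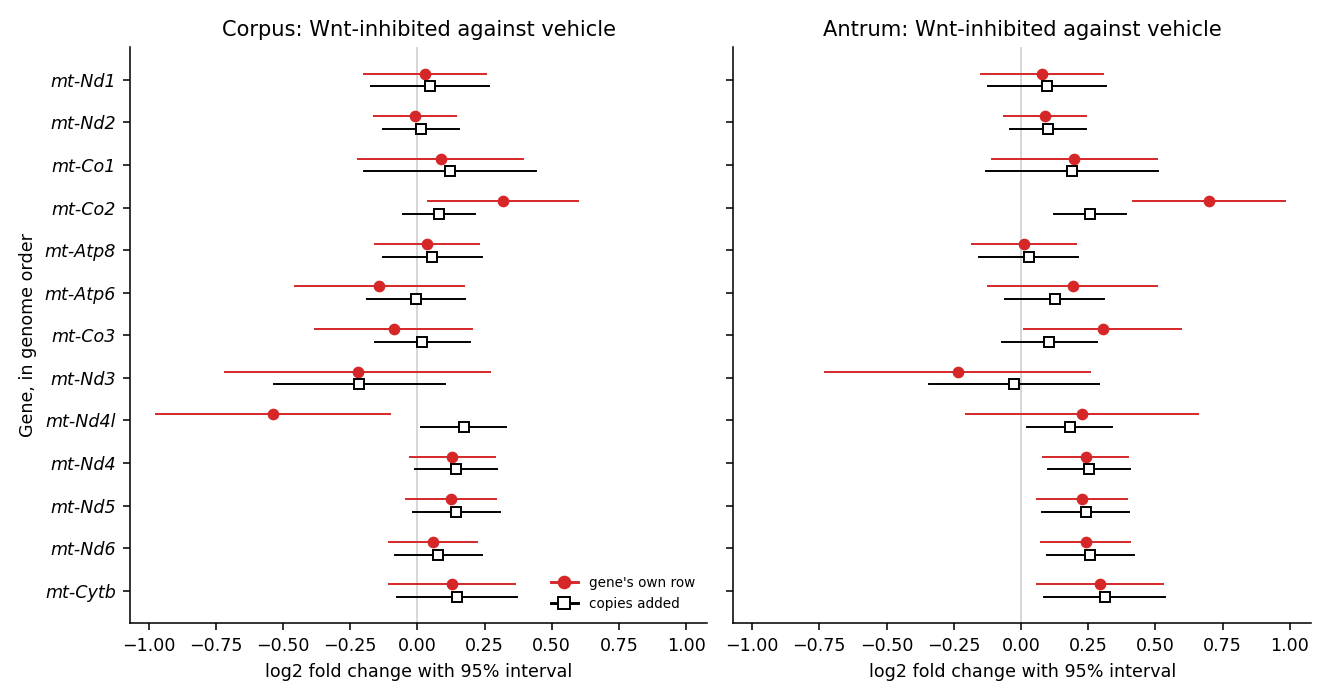
log2 fold change with 95% interval for the 13 mtDNA genes after Wnt inhibition relative to vehicle, in corpus (left) and antrum (right), from the gene's own row (filled circles) and with the counts of near-identical nuclear copies added (open squares). The mt-Co2 value in antrum moves to 0.26 with copies added, against 0.70 alone, and that of mt-Nd4l in corpus moves to 0.17, against -0.54 alone.

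The direction of the small shifts depends on how libraries are scaled. The TMM factors were 0.953 to 0.980 for inhibited and 1.067 to 1.079 for vehicle corpus libraries, and 0.958 to 0.966 for inhibited and 0.900 to 1.114 for vehicle antral ones. With unscaled totals the median of all genes fell to -0.19 in corpus, against -0.04 with TMM, and to -0.12 in antrum, against -0.04. The nuclear members' median was then -0.08 in corpus and 0.03 in antrum, above the median of all genes under every scaling. Calls among the members were then 0 higher and 6 lower in corpus (Ndufaf5, Ndufaf6, Ndufa4, Ndufa7, Ndufc2 and mt-Nd4l), and 2 higher in antrum (Cox5a and mt-Co2). Of all genes 31.4% were called in corpus and 24.7% in antrum. The share of higher genes among all calls moved to 26.4% in corpus, against 50.1% with TMM, and to 44.4% in antrum, against 55%. Under upper quartile scaling 7 members were called higher and 3 lower in corpus and 8 higher in antrum, with 45.4% and 43.6% of all calls higher. Under the size factors of DESeq2 (RLE) 11 were higher and 1 lower in corpus and 28 higher in antrum. Of all genes, 31.9% in corpus and 31% in antrum were called under upper quartile scaling, and 30.9% and 30% under RLE. Of the 7 members called in both regions, Ndufa3 lost its antral call (adjusted p = 0.0830) and Cox6b1 its corpus call (0.0595) under upper quartile scaling. With unscaled totals all 7 lost their corpus calls, and Cox5a alone kept its antral call. Each of the 7 still kept a positive log2 fold change in both regions under every scaling, at its lowest 0.02 for Cox6b1 in corpus with unscaled totals.

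**Figure D5:**
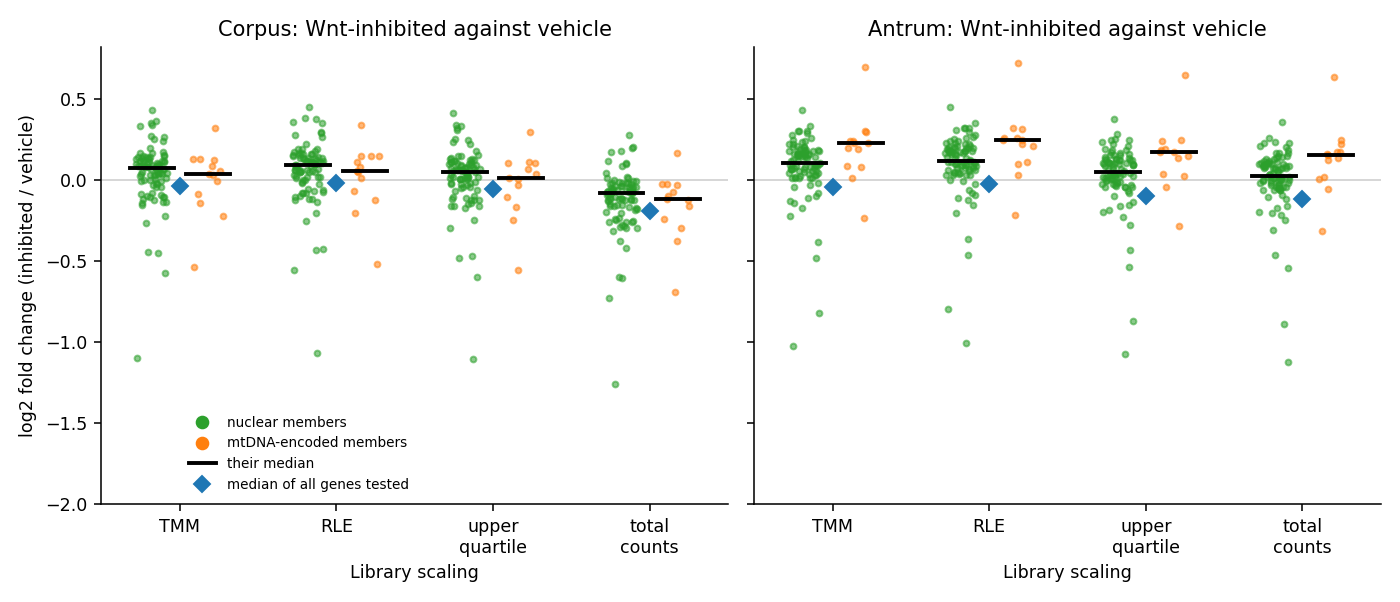
log2 fold changes of nuclear (green) and mtDNA-encoded (orange) members after Wnt inhibition relative to vehicle under 4 library scalings, in corpus (left) and antrum (right); bars are their medians and diamonds the median of all genes tested. In corpus the nuclear median is 0.07 with TMM and -0.08 with unscaled totals, where the median of all genes is -0.19.

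Shares within the module do not depend on library scaling. As a share of all nuclear members' counts, Cox5a took 1.297% ± 0.0337 in inhibited and 1.06% ± 0.0205 in vehicle corpus, and 1.35% ± 0.0751 in inhibited and 1.09% ± 0.0646 in vehicle antrum (SD, n = 3 each). It was joined by Atp5g1, Ndufa3, Cox6a1 and Cox5b in being higher without overlap in both regions. The assembly factors together took 0.906% ± 0.102 in inhibited against 1.06% ± 0.0270 in vehicle corpus and 0.963% ± 0.00765 in inhibited against 1.09% ± 0.0667 in vehicle antrum, lower without overlap in both. Complex III was higher without overlap in corpus, at 10.50% ± 0.119 after inhibition against 10.29% ± 0.0467 with vehicle. Lower without overlap in both regions were Atp5c1, Atp5g2, Ndufa4, Ndufab1, Ndufb4c, Ndufb5, Ndufb11, Ndufc2, Ndufaf1, Ndufaf5 and Ndufaf6. Set against the same total, 11.1% of nuclear members were higher and 20% lower without overlap in corpus, against 13.8% and 27.9% of all genes, and 13.3% and 17.8% in antrum, against 14.5% and 35.2% of all genes.

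The test called no member between antrum and corpus, and few genes of any kind. With vehicle 0 members passed, against 0.198% of all genes (0.0681% higher and 0.13% lower). Of the members 2 nuclear and 4 mtDNA members had an unadjusted p under 0.05, and DESeq2 called 1 (mt-Atp8) and limma-voom 0. DESeq2 called 3.14% of all genes with vehicle. mt-Atp8 had 86.2, 77.2 and 80.3 CPM in vehicle antrum against 67.4, 59.8 and 59.3 CPM in vehicle corpus, higher in all antral libraries (log2 0.39, adjusted p = 0.102). All 3 antral vehicle libraries lay above all corpus ones for 11 members and below for 2, against 9.7% and 12.8% of all genes. After inhibition 0 members passed, against 0.0619% of all genes (0.0495% higher and 0.0124% lower), with 1 nuclear and 7 mtDNA members at an unadjusted p under 0.05, 4 called by DESeq2 (mt-Atp8, mt-Co3, mt-Cytb and mt-Nd4l) and 0 by limma-voom. Of all genes DESeq2 called 0.923% after inhibition. The inhibited antral libraries lay wholly above the corpus ones for 9 members and below for 3, against 6.71% and 5.06% of all genes. The median log2 difference of the mtDNA members was 0.28 after inhibition and 0.03 with vehicle, and that of the nuclear members 0.06 and -0.02.

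The region counts moved with corpus line 8028, among the members and among all genes. Without inhibited corpus line 8028 alone, 12 of the 103 members were called higher in antrum after inhibition, when 11.4% of all genes passed. Without both corpus libraries of the line, a choice made after the principal components were seen, 13 were higher and 1 lower in antrum, when 14.6% of all genes passed. These were mt-Atp6, mt-Atp8, mt-Co2, mt-Co3, mt-Cytb, mt-Nd1, Atp5g3, Cox5b, Ndufa4, Ndufaf2, Ndufaf4, Ndufaf5 and Uqcr10, with mt-Co1 lower. With vehicle, mt-Atp8 was then higher and mt-Co1 lower, and 6.6% of all genes passed. For the corpus treatment comparison, leaving out both libraries gave 9 higher and 6 lower, including all 10 members called with them, and 36.7% of all genes passed.

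The responses of the regions were compared by their interaction. Of the members 0 passed by edgeR, DESeq2 or limma-voom, against 0.00619% of all genes, and 1, mt-Nd4l, had an unadjusted p under 0.05 (log2 0.76, SE 0.280, adjusted p = 1). The next were mt-Co2 (0.38, SE 0.181) and mt-Co3 (0.39, SE 0.188), each with an adjusted p of 1. All 3 are genes whose copies hold most of the counts. The larger number of antral than corpus calls is therefore not a tested difference between the regions.

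Genes that build or feed the chain were listed beside the members, and their counts are set against 15.5% of all genes higher and 15.4% lower in corpus and 16.3% and 13.4% in antrum. With unscaled totals 31.4% of all genes were called in corpus and 24.7% in antrum, and 26.4% and 44.4% of those calls were higher. Of 46 assembly factors for the complexes outside the name rule, corpus had 6 higher and 4 lower after inhibition, and antrum 7 higher and 1 lower. Coa3, which guides the synthesis of mt-Co1 into complex IV, averaged 65.7 ± 1.26 CPM in inhibited and 45.8 ± 1.34 CPM in vehicle corpus, and 66.4 ± 3.73 CPM in inhibited and 44.5 ± 3.30 CPM in vehicle antrum (SD, n = 3 each; log2 0.52 and 0.58, adjusted p = 0.000169 and 8.0e-05). Surf1, needed for heme insertion into mt-Co1 (0.27 and 0.43), the copper chaperone Sco1 (0.38 and 0.39), Cox14 (0.34 and 0.33) and Coa4 (0.27 and 0.46), all acting on complex IV, rose in corpus and antrum. Cox11, which supplies copper to complex IV, rose in corpus (0.46). Sdhaf1, which helps to place iron-sulfur clusters in Sdhb, fell in both (-0.39 and -0.55, adjusted p = 0.0146 and 0.00207). Nubpl, the iron-sulfur carrier for complex I (-0.51), Sdhaf4 (-0.32) and the ATP synthase factor Tmem70 (-0.29) fell in corpus. With unscaled totals the calls were 1 higher and 8 lower in corpus, against 3 higher and 1 lower in antrum, and none of these named genes changed sign.

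Of 22 tested electron carriers and related genes, including the members Atp5md and Atp5mpl, 5 were called higher and 2 lower in corpus, and in antrum 7 higher and 2 lower. Etfb, a subunit of the flavoprotein that carries electrons from fatty acid and amino acid oxidation, averaged 123 ± 4.52 CPM in inhibited and 85.3 ± 1.17 CPM in vehicle corpus, and 129.7 ± 8.37 CPM in inhibited and 81.2 ± 5.71 CPM in vehicle antrum (log2 0.53 and 0.68, adjusted p = 0.000133 and 2.6e-05). Its partner Etfa (0.21 and 0.26) and Etfdh, which delivers those electrons to ubiquinone (0.25 and 0.44), rose with it, as did glycerol-3-phosphate dehydrogenase Gpd2 (0.29 and 0.35). Coq8a, a regulator of ubiquinone synthesis, fell to 2.10 ± 0.362 CPM in inhibited against 7.37 ± 1.22 CPM in vehicle corpus, and to 2.06 ± 0.263 CPM in inhibited against 5.11 ± 0.752 CPM in vehicle antrum (-1.81 and -1.31, adjusted p = 4.8e-05 and 0.000435). Coq2, an enzyme of the same synthesis, fell in both (-0.27 and -0.31). With unscaled totals corpus had 2 higher and 3 lower, and antrum had 3 higher and 2 lower.

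Of 29 genes for mtDNA upkeep and expression 0 rose in either region, and 4 fell in corpus and 3 in antrum, where 15.4% and 13.4% of all genes fell. Ssbp1, the protein that coats single-stranded mtDNA, averaged 28.4 ± 1.92 CPM in inhibited and 38.8 ± 0.779 CPM in vehicle corpus, and 29.8 ± 1.06 CPM in inhibited and 39.1 ± 2.69 CPM in vehicle antrum (log2 -0.45 and -0.40, adjusted p = 0.000677 and 0.00167). Grsf1, an RNA-binding protein of mitochondrial RNA granules (-0.29 and -0.25), and the topoisomerase Top1mt (-0.53 and -0.38) fell in both, and the helicase Twnk fell in corpus (-0.61). Tfam, the packaging and transcription factor of mtDNA, had -0.13 and -0.18 and did not pass. With unscaled totals 9 fell in corpus and 3 in antrum.

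Of 12 regulators of mitochondrial biogenesis, 1 (Esrra) was called higher in each region, while 2 were lower in corpus and 3 in antrum. Ppargc1a, a coactivator of respiratory genes, averaged 3.01 ± 0.717 CPM in inhibited and 12.2 ± 2.74 CPM in vehicle corpus, and 3.52 ± 0.929 CPM in inhibited and 11.3 ± 2.10 CPM in vehicle antrum (log2 -2.02 and -1.68, adjusted p = 0.000122 and 0.000394). Esrra, a nuclear receptor that works with it, averaged 123.7 ± 1.53 CPM in inhibited and 85.9 ± 5.93 CPM in vehicle corpus and 125.6 ± 3.23 CPM in inhibited and 88.2 ± 3.42 CPM in vehicle antrum (0.53 and 0.51, adjusted p = 6.6e-05 and 7.7e-05). Myc, a growth regulator and Wnt target, fell in both (-0.58 and -0.62, adjusted p = 0.0138 and 0.0103), and Gabpb1, a partner of the GABP factor, fell in antrum (-0.28). Nrf1, Gabpa, Yy1, Ppargc1b and Pprc1 did not pass in either region. The calls of Ppargc1a, Esrra and Myc were made under each of the 4 scalings.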

How the data were processed

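RNA from 12 organoid libraries was selected for polyA and sequenced, per the labels' protocols. Per the file headers, the values deposited are expected counts per gene; all were whole, so rounding changed nothing. RSEM 1.3.3, STAR 2.7.8a, cutadapt 2.3, FastQC 0.11.8 and the build GRCm38 are named in the submitters' processing notes, with no role or setting. Neither strandedness nor the release of the annotation is given in the sources used here. RSEM divides reads that fit several genes, which sets how counts fall between mtDNA genes and their copies. Of 55426 rows, 5 that name no mouse gene held 2 counts and were left out. Totals were 18858022 to 31656696 counts.

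The test was edgeR's quasi-likelihood test (edgeR 4.0.16, R 4.3.3), robust and two-sided, on TMM-scaled counts of the 16152 genes that passed filterByExpr by group, which hold 103 of the 104 members (all but Cox6a2). All 12 libraries shared the fit, leaving 8 residual degrees of freedom, and p-values were adjusted over all genes by Benjamini-Hochberg. The p-values set a difference against the spread between lines within groups, pooled over the 4 groups. The fit reported does not use the pairing of treatments by line, which the block on the line does. CPM use TMM-scaled totals. Exon lengths, positions and copies (BLASTN) are from GENCODE M21, promoter windows from RefSeq, both on GRCm38. Alternatives used DESeq2 1.42.0, limma-voom (limma 3.58.1), other scalings and filters, blocks and left-out libraries. The fit was checked on simulated data. The members, lists and tests were chosen with earlier results of these data known.

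Named genes were all mtDNA genes, the isoform families, Ndufs1 and the complex II subunits, the 6 largest called rises and falls per treatment comparison with a mean of 5 CPM or more and the same direction in all lines, the 3 largest called region differences in each direction (none qualified) and the 3 smallest interaction p-values. Other members are named where a count of calls turns on them, chosen after their values were seen. Libraries of the same line pair the treatments of a region, since each line was treated both ways: their deviations from the group means correlated at 0.345 to 0.544 in corpus and 0.157 to 0.259 in antrum. Across regions equal numbers correlated at -0.104 to 0.277 and are only a shared number. No 2 libraries of a group agreed within counting error (chi-square per degree of freedom 10.8 to 306). The values of 1 member are not reported here.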

Additional observations from a re-analysis of the deposited data

How the results depend on the processing

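The counts of calls moved with the processing, among the members and among all genes (11.2% to 43.5% called in corpus), and the cause was not tested. In antrum 29.7% of all genes were called in the fit reported. This share was 31% with upper quartile scaling, 24.7% with unscaled totals and 14.4% without a filter. The nuclear calls in corpus, 10 in the fit reported, were 5 with unscaled totals and 17 with the replicate block on the line. The mtDNA calls in corpus, 0 as reported, were 1 with upper quartile scaling, with unscaled totals or with only the 6 libraries compared, and 2 with DESeq2. The nuclear calls in antrum, 19 as reported, were 7 with upper quartile scaling, 1 with unscaled totals, 11 without a filter, 31 with the replicate block and 8 without the rRNA-rich vehicle libraries. The mtDNA calls in antrum, 4 as reported, were 1 under upper quartile scaling, unscaled totals or without those libraries. For antrum against corpus, DESeq2 called 1 mtDNA member with vehicle and 4 after inhibition. It called 3.14% of all genes with vehicle and 0.923% after inhibition. Without both corpus libraries of line 8028 the mtDNA calls were 2 with vehicle and 7 after inhibition, with 7 nuclear calls after inhibition. Of all genes 6.6% with vehicle and 14.6% after inhibition were then called.

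Leaving out a library or a whole line number gave 1 to 18 nuclear and 0 to 1 mtDNA calls in corpus and 2 to 26 nuclear and 0 to 9 mtDNA calls in antrum. Those fits called 11.2% to 41.7% of all genes in corpus and 11.7% to 32.4% in antrum. For antrum against corpus they gave 0 to 3 nuclear and 0 to 2 mtDNA calls with vehicle, and 0 to 7 nuclear and 0 to 8 mtDNA calls after inhibition. The share of all genes called moved there as well, from 0% to 8.76% with vehicle and from 0% to 11.6% after inhibition. The interaction stayed at 0 calls among the members under all alternatives run. Where a group was left with 1 or 2 libraries, all groups shared the estimate of the spread. The replicate block on the number shared by the regions left 0 members called in both region comparisons. No alternative gave a called member the opposite direction.

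The log2 ratios of summed shares, inhibited over vehicle, were -0.08 for nuclear members in corpus (-0.13 to -0.06 on leaving out libraries), 0.06 in antrum (-0.05 to 0.13, and -0.03 without rRNA-like genes in the denominator), -0.08 for mtDNA members in corpus (-0.14 to -0.03) and 0.14 in antrum (0.07 to 0.20). With rRNA-like genes left out of the denominator, the antral mtDNA shares also overlapped between treatments. They were 1.58%, 1.44% and 1.51% after inhibition against 1.45%, 1.37% and 1.55% with vehicle. Cox6a2, with 14 counts, could not be tested at this depth.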

Other observations

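The tricarboxylic acid cycle and the entry of pyruvate into it were listed as a source of electrons for the chain. In corpus 4 of 24 genes were called higher and 4 lower, and in antrum 9 higher and 2 lower, where 15.5% and 15.4% of all genes rose and fell in corpus and 16.3% and 13.4% in antrum. Ogdh, the first subunit of 2-oxoglutarate dehydrogenase, averaged 251.7 ± 2.00 CPM in inhibited and 172 ± 6.84 CPM in vehicle corpus, and 254.5 ± 8.31 CPM in inhibited and 182 ± 7.22 CPM in vehicle antrum (SD, n = 3 each; log2 0.55 and 0.49, adjusted p = 2.6e-05 and 5.1e-05). Citrate synthase Cs rose in both regions (0.27 and 0.25). Pdp1, the phosphatase that activates pyruvate dehydrogenase, averaged 33.0 ± 2.31 CPM in inhibited and 16.7 ± 1.20 CPM in vehicle corpus and 33.2 ± 2.48 CPM in inhibited and 17.2 ± 1.04 CPM in vehicle antrum (0.99 and 0.95), while the kinase Pdk3, which inactivates the same enzyme, fell in both (-0.63 and -0.63). The kinases Pdk4 and Pdk2, which act on the enzyme as Pdk3 does, went the other way in antrum. Over the 4 scalings Pdk4 rose there by 2.245 to 2.355 on the log2 scale (adjusted p = 0.0108 to 0.0135). Pdk2 rose by 0.829 to 0.909 and lost its call under upper quartile scaling (adjusted p = 0.0545). Neither was called in corpus with TMM. Pdha1, the catalytic subunit of pyruvate dehydrogenase, fell in corpus (-0.18, adjusted p = 0.0217) and had 0.04 in antrum. With unscaled totals the calls were 2 higher and 6 lower in corpus, and 4 higher and 1 lower in antrum. Of all genes 31.4% in corpus and 24.7% in antrum were then called.

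Of 78 genes of the mitochondrial ribosome, which translates the mtDNA messages, 4 were called higher and 5 lower in corpus, and 3 in each direction in antrum. Of all genes, 15.5% were higher and 15.4% lower in corpus, and 16.3% and 13.4% in antrum. Mrpl16, of the large subunit, averaged 24.1 ± 4.27 CPM in inhibited and 47.0 ± 3.99 CPM in vehicle corpus, and 26.4 ± 1.3 CPM in inhibited and 37.4 ± 1.99 CPM in vehicle antrum (log2 -0.97 and -0.50, adjusted p = 9.3e-05 and 0.00598). Mrps24, of the small subunit, rose in both (0.30 and 0.33, adjusted p = 0.0139 and 0.00874). With unscaled totals 10 were called lower in corpus and 3 in antrum, and 0 higher in either. In that setting 31.4% of all genes were called in corpus and 24.7% in antrum, and 26.4% and 44.4% of those calls were higher.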
